A study of Homo sapiens with 6 samples.

Results

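The 32 genes described here encode the enzymes of glycolysis, glucose transporters, regulators of the flux through the pathway, and proteins that human cells make in larger amounts when oxygen is scarce. They were taken by gene symbol from the table of raw counts, which lists 26364 genes, and all 32 were present in it. They comprise 16 glycolytic enzymes, 2 glucose transporters, 3 flux regulators, 5 oxygen-dependent dioxygenases and 6 other genes induced by hypoxia. Enough counts for a test were present for 31 of them, by a filter on low counts. The exception was the glucose transporter gene SLC2A3, which held between 0 and 10 counts in a library.

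Expression was measured by RNA-seq of poly(A) RNA in Ishikawa cells, a cultured line from an endometrioid adenocarcinoma. The study asked how the loss of ETV4, an ETS-family transcription factor, bears on the estrogen response of these cells. Its 3 lines were the parental line, in which ETV4 was not targeted, and the ETV4 knockout clones 1 and 2. From each line there is 1 library of cells given vehicle, 0.1% DMSO, and 1 of cells given 10 nM estradiol (E2). All lines had first spent 5 days in medium stripped of hormones, and the treatment time is given as 1 h in one label and as 8 h in another. Each parental group is therefore 1 library, and each knockout group is 2 libraries from 2 clones. What is particular to a clone or to the parental line cannot be told apart from the knockout with these lines. No label says whether the dishes were prepared independently, so p-values measure the spread between these libraries, which may in part be technical.

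The libraries held 28037392 to 36829479 counts. ETV4 had 586 counts in the parental DMSO library and 1063 in the parental E2 library, against 71 to 122 in the knockout libraries, which matched the labels. All 8 epithelial markers examined, among them EPCAM, KRT8 and PAX8, were above 1 CPM in every library, where CPM is the level scaled to library size after TMM. The leukocyte markers summed to 3.23 to 5.61 CPM, the endothelial ones to 1.65 to 4.55 and the neuronal ones to 0.994 to 2.94. The fibroblast markers summed to 46.7 to 86.1 CPM, carried by COL1A1 and COL3A1. Of the other 5 on that list of 7, COL1A2 and PDGFRA stayed at or below 0.721 and 0.538 CPM, and DCN, LUM and PDGFRB at or below 0.0837 CPM. The epithelial markers summed to 3064 to 3323 CPM in DMSO and 2419 to 2669 in E2. Their fitted log2 differences with E2 were unlike: KRT8 and KRT18 were at -0.68 and -0.67, while CDH1 and MUC1 were at 0.091 and 0.40. EPCAM, KRT19, CLDN4 and PAX8 lay between -0.22 and -0.032. The part of this in the E2 differences below was not tested. In bulk RNA, fewer cells of a kind and less RNA per cell cannot be told apart. The TMM factor was 0.899 for the parental DMSO library and 1.01 to 1.04 for the other 5 libraries. Across genes, the Spearman correlation of GC content with the E2 log2 ratio was 0.331 for the parental line, 0.129 for clone 1 and -0.00808 for clone 2, a description of these libraries in which genes are not replicates. Its part in the parental ratios below is given as values when a trend over GC content and length is removed.

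Glycolysis converts glucose to pyruvate in the cytosol, and lactate dehydrogenase can turn that pyruvate into lactate. Several of its steps are catalysed by paralogs that differ between tissues, such as the hexokinases HK1 and HK2. When oxygen is plentiful, prolyl hydroxylases of the EGLN family mark the hypoxia-inducible factors (HIF) for destruction through VHL. When it is scarce, HIF dimers with ARNT accumulate and bind short elements with the core ACGTG or GCGTG in genes for glycolytic enzymes, VEGFA and BNIP3, among others. In the uterus VEGFA is also known as an estrogen-responsive growth factor for blood vessels.

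The promoters are shown first because this core is the sequence feature that the pathway's genes are known for. RefSeq's promoter table (build GRCh38.p14, 250 bases before to 50 after a gene's start) held 28 of the 32 genes. VEGFA, BNIP3L, NDRG1 and SLC2A3 were not matched. On either strand, ACGTG or GCGTG was present in 20 of the 28 promoters (71.4%), in 48.4% of all 35116 promoters of this length and in 61.8% of the 11225 promoters of genes tested here. ACGTG alone was present in 12 of the 28 (42.9%), in 21.4% of all promoters and in 25.9% of those of tested genes. The ETS sequence CCGGAAGT was found in the promoters of GPI and ANKRD37 (7.14% of 28, against 4.14% of all and 8.00% of tested genes). The estrogen receptor element's arm AGGTCA was found in those of HK1, ALDOC and TPI1 (10.7%, against 13.8% and 9.99%). These 2 motifs were added after the data had been seen. A match describes these letters in this window and is not a binding site. The 250 bases before the start are printed for HK2, BNIP3 and PFKFB3, the genes with a core match whose E2 response differed between the lines in a test given below, and for PGK1, a textbook HIF target. The sequences run 5′ to 3′ on the gene's strand, and capitals mark ACGTG or GCGTG as read on that strand or, as CACGT or CACGC, on the opposite one.
HK2 chr2:74833877-74834126 (+ strand): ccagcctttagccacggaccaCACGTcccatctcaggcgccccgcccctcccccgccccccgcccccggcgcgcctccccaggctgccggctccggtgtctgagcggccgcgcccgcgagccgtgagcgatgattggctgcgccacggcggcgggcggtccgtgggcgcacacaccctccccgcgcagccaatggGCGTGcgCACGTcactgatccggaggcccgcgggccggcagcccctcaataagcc
BNIP3 chr10:131981924-131982173 (- strand): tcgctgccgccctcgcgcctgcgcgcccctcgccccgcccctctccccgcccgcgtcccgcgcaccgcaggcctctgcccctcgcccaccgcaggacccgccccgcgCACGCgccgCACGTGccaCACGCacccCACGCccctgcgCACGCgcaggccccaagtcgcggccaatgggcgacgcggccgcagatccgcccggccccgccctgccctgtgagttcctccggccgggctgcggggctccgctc
PFKFB3 chr10:6144671-6144920 (+ strand): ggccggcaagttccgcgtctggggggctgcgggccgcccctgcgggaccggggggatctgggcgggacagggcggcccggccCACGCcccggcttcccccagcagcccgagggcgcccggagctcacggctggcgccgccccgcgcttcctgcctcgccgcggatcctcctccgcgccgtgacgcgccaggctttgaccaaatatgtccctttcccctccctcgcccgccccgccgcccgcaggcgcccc
PGK1 chrX:78103998-78104247 (+ strand): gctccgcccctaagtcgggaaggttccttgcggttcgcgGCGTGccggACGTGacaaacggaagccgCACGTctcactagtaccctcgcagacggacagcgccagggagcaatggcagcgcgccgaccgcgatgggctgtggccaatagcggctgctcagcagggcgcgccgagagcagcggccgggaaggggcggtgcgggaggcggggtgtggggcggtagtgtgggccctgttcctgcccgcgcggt
In HK2 the core matches began 229, 55 and 48 bases before the start, the last 2 close together. BNIP3 held 6 matches, all between 143 and 104 bases before the start, counting its palindrome CACGTG once per strand. PFKFB3 held 1 match, on the opposite strand. PGK1 held 3 matches in the printed stretch and another beginning at base 29 after the start. Promoters of HK1, PFKM, PFKP, TPI1, PGAM1, PDK1, EGLN3 and P4HA2 held neither form of the core.

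With E2, VEGFA was the 1 gene of the 31 that rose by the test over the 3 lines, and none fell. VEGFA encodes the main growth factor for blood vessels. It stood at 52.2 CPM in the parental DMSO library and 128.6 in the parental E2 library, at 64.0 and 106.6 in clone 1, and at 58.7 and 102.8 in clone 2. The 3 E2 libraries were all above the 3 DMSO libraries, with no overlap. In the clones the mean was 61.3 ± 3.70 CPM in DMSO and 105 ± 2.66 CPM in E2 (SD, n = 2). The fitted log2 difference between E2 and DMSO was 0.95 (SE 0.15). The quasi-likelihood test of edgeR gave a p of 0.0395 after Benjamini-Hochberg (BH) adjustment over all 15611 genes, and every adjusted p from edgeR below was obtained in this way. Over all genes tested 0.903% were called higher in E2 and 0.224% lower. With line as a replicate block, which compares each line's E2 library with its own DMSO library, VEGFA was again the 1 gene called higher (edgeR BH-adjusted p 0.0384), beside 1.72% of all genes higher and 0.743% lower. The call was lost when either parental library, either clone 1 library or the clone 2 E2 library was left out: the log2 difference was then 0.75 to 1.02, and the edgeR BH-adjusted p 0.0624 to 0.163. Among the 31 genes, 8 had an unadjusted p under 0.05, a level that 20.4% of all genes reached. DESeq2's Wald test called 4 of the 31, which were VEGFA, HK2, BNIP3 and BNIP3L, beside 7.58% of all genes with an adjusted p. No p-value is adjusted over these genes alone, because they were chosen with results of these data known.

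**Figure D1:**
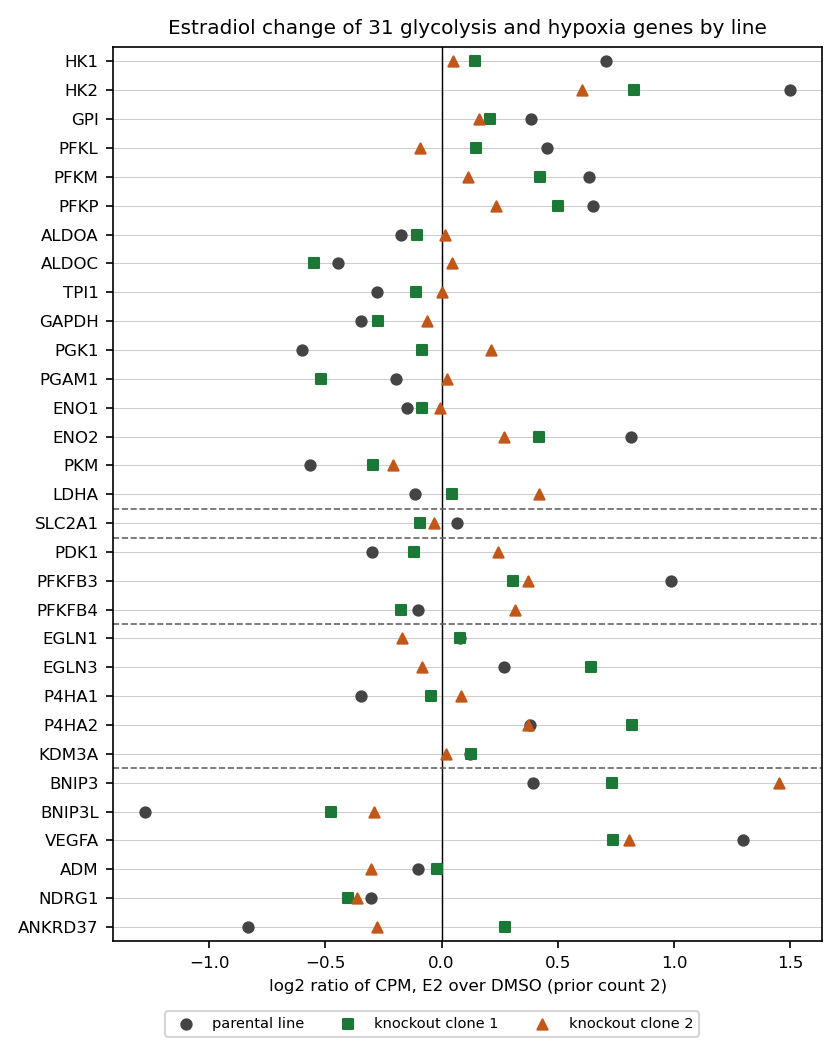
The log2 ratio of CPM between E2 and DMSO (x axis, prior count 2) for the 31 tested genes (y axis, by role, roles separated by dashed lines) in the parental line (circles), clone 1 (squares) and clone 2 (triangles), each point from 1 library per treatment. HK2, VEGFA and BNIP3 lie to the right of 0 in all 3 lines and BNIP3L to the left, with the parental point of BNIP3L farthest from 0 on that side, at -1.27.

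Among the glycolytic enzymes, HK1, HK2, GPI, PFKM and PFKP, which act at the entry of the pathway, stood higher in E2 in each line, and of the later enzymes ENO2 alone did; no enzyme passed the 3-line test. HK2, the inducible hexokinase, was at 32.2 CPM in parental DMSO and 90.9 in parental E2, at 40.8 and 72.4 in clone 1, and at 48.4 and 73.7 in clone 2. All 3 E2 libraries exceeded all 3 DMSO libraries. The fitted log2 difference was 0.97 (SE 0.19), the largest positive one among the 31, but its edgeR BH-adjusted p was 0.0766. The correction for GC content and length called HK2 and VEGFA, beside 2.61% of all genes. HK1, the hexokinase found in most tissues, was at 45.4 and 74.2 CPM in parental DMSO and E2, at 53.9 and 59.6 in clone 1, and at 66.4 and 68.7 in clone 2. Here the groups overlapped, since the clone 2 DMSO library lay above the clone 1 E2 library. Each gene is measured on its own scale, so the hexokinases were also set side by side per kilobase of transcript. The ratio of HK2 to HK1 was 0.490 in parental DMSO and 0.848 in parental E2, 0.525 and 0.842 in clone 1, and 0.505 and 0.743 in clone 2. In each line HK2 thus made up a larger part of the hexokinase mRNA in E2 than in DMSO, and the 3 DMSO ratios lay below the 3 E2 ratios.

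The phosphofructokinases commit sugar to glycolysis. PFKP, the platelet-type form, was at 49.1 and 77.3 CPM in parental DMSO and E2, at 35.0 and 49.6 in clone 1, and at 56.2 and 66.1 in clone 2. The E2 library was the higher one in each line, while clone 2 in DMSO exceeded clone 1 in E2. PFKM, the muscle form, was at 83.7 and 130 CPM in the parental line, 85.6 and 115 in clone 1 and 104 and 112 in clone 2. It overlaps SENP1 in RefSeq, a gene with 83.1% of its counts, so its values are uncertain. PFKL, the liver form, was at 79.6 and 109 CPM in the parental line, 99.6 and 110 in clone 1, and 119 and 112 in clone 2. PFKL therefore lay higher in E2 in the parental line and clone 1 and lower in clone 2. GPI, the isomerase between the hexokinase and phosphofructokinase steps, ranged from 357 to 375 CPM in DMSO and from 401 to 490 in E2, without overlap (edgeR BH-adjusted p 0.294).

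The enzymes after the split of the sugar carried most of the mRNA and, apart from ENO2, lay lower in E2 or on both sides of 0. Per kilobase, averaged over the 6 libraries, GAPDH had the highest level at 2289 CPM per kb, followed by PKM at 601, TPI1 at 568, ENO1 at 471 and ALDOA at 468. HK2, at 10.3, and ALDOC, at 8.03, had the lowest levels of the 16. The 16 enzymes together summed to 13578 CPM in parental DMSO and 11268 in parental E2, to 11479 and 10172 in clone 1, and to 10097 and 10008 in clone 2. The E2 sum was the lower one in each line, and as a share of the unscaled total counts it was also lower, at 1.22% and 1.15% in the parental line, 1.16% and 1.03% in clone 1 and 1.05% and 1.03% in clone 2. GAPDH alone made up 37.0% to 41.0% of the sum. In clone 2 its part was 38.3% in DMSO and 37.0% in E2, and there the other enzymes together were not lower in E2 in CPM.

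PKM, pyruvate kinase, had the most negative fitted E2 difference of an enzyme. Its levels were 2232 and 1510 CPM in parental DMSO and E2, 1639 and 1335 in clone 1, and 1651 and 1431 in clone 2. The 3 E2 libraries all lay below the 3 DMSO libraries, at a log2 difference of -0.35 (SE 0.14) and an edgeR BH-adjusted p of 0.223. PGK1, phosphoglycerate kinase, was at 579 CPM in parental DMSO and 382 in parental E2, at 425 and 402 in clone 1, and at 316 and 366 in clone 2. Only the parental DMSO library stood well above the rest. ENO1, the common enolase, was at 1346 and 1215 CPM in the parental line, 1092 and 1031 in clone 1, and 975 and 970 in clone 2. Its order followed the lines more than the treatment. ENO2, the enolase typical of neurons, was at 18.3 and 32.3 CPM in the parental line, 23.1 and 30.9 in clone 1, and 38.5 and 46.5 in clone 2. Clone 2 in DMSO lay above the other lines in E2, and ENO2 was the 1 gene of the 31 at least 1.5-fold higher in clone 2 than in clone 1 under both treatments (4.22% of all genes), while none was at least 1.5-fold lower (4.23%).

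LDHA, which makes lactate, was at 757 and 699 CPM in the parental line, 596 and 614 in clone 1 and 429 and 573 in clone 2. The parental libraries were the 2 highest, and E2 lay above DMSO in the clones and below it in the parental line. GAPDH ranged from 3865 to 5360 CPM in DMSO and from 3704 to 4215 in E2. The aldolase gene ALDOA ranged from 715 to 922 CPM, the triose-phosphate isomerase gene TPI1 from 919 to 1184, and the mutase gene PGAM1 from 328 to 499 over the 6 libraries. ALDOC, the aldolase typical of brain, ranged from 12.2 to 18.8 CPM. None of these 5 passed a test in any of the comparisons here. Reads of PGAM1 may be shared with the near-copy PGAM4.

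Of the transporters, SLC2A1 (GLUT1), the main basal glucose transporter, differed little with E2. It was at 105 CPM in parental DMSO and 110 in parental E2, at 137 and 129 in clone 1, and at 121 and 118 in clone 2. The parental libraries were the lowest in each treatment. SLC2A3 (GLUT3) had 5 and 10 counts in the parental line, 4 and 4 in clone 1, and 0 and 0 in clone 2, which allows up to 3 counts in a library, counting error only.

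PFKFB3, which makes the activator of phosphofructokinase, was the flux regulator with the widest range. It was at 13.9 CPM in parental DMSO and 27.6 in parental E2, at 16.1 and 19.9 in clone 1, and at 22.1 and 28.7 in clone 2. E2 lay above DMSO in each line, but clone 2 in DMSO exceeded clone 1 in E2. Its relative PFKFB4 ranged from 9.15 to 13.0 CPM. PDK1, a kinase that inhibits pyruvate dehydrogenase, was at 30.1 and 24.5 CPM in the parental line, 27.7 and 25.5 in clone 1, and 19.4 and 23.0 in clone 2. Neither PFKFB4 nor PDK1 moved the same way with E2 in all 3 lines.

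P4HA2, a prolyl hydroxylase that modifies collagen, was the dioxygenase gene with the largest E2 difference. It was at 23.8 and 31.1 CPM in parental DMSO and E2, at 29.5 and 52.1 in clone 1, and at 26.2 and 33.9 in clone 2. All E2 libraries were above all DMSO libraries, and clone 1 in E2 stood apart at the top. Its relative P4HA1 ranged from 84.7 to 108 CPM, so that the ratio of P4HA2 to P4HA1 per kilobase was 0.188 and 0.312 in the parental line, 0.274 and 0.498 in clone 1, and 0.252 and 0.308 in clone 2. Of the oxygen sensors, EGLN1 ranged from 60.4 to 67.9 CPM and EGLN3 from 2.19 to 4.22. EGLN3 was at 2.68 CPM in DMSO and 4.22 in E2 in clone 1, and at 2.32 and 2.19 in clone 2. KDM3A, a histone demethylase induced by hypoxia, ranged from 49.3 to 65.1 CPM and was slightly higher in E2 in each line.

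BNIP3 and BNIP3L, paralogs that mark mitochondria for removal by autophagy, went opposite ways with E2. BNIP3 was at 24.4 CPM in parental DMSO and 32.1 in parental E2, at 27.9 and 46.3 in clone 1, and at 19.4 and 53.3 in clone 2. BNIP3L was at 182 CPM in parental DMSO and 75.1 in parental E2, at 124 and 89.0 in clone 1, and at 116 and 94.8 in clone 2. For both genes the 3 E2 libraries lay to one side of the 3 DMSO libraries, above them for BNIP3 and below them for BNIP3L. The fitted log2 difference was 0.85 (SE 0.21) for BNIP3 and -0.68 (SE 0.20) for BNIP3L, and edgeR's BH-adjusted p was 0.119 and 0.159, in that order. Per kilobase the ratio of BNIP3 to BNIP3L was 0.158 and 0.503 in the parental line, 0.265 and 0.613 in clone 1, and 0.197 and 0.662 in clone 2. BNIP3 overlaps PPP2R2D in RefSeq, a gene with 215% of its counts, and the use of strand in the authors' counting is not given in the sources used here.

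NDRG1, a stress-induced gene, was at 2.32 and 1.87 CPM in the parental line, 4.91 and 3.70 in clone 1, and 5.46 and 4.24 in clone 2. E2 lay below DMSO in each line, and the parental libraries lay below all 4 knockout libraries. ADM, which encodes the vasodilator adrenomedullin, had 32 to 56 counts in a library, or 1.09 to 1.56 CPM. ANKRD37, a small ankyrin-repeat gene induced by hypoxia, had 34 and 23 counts in parental DMSO and E2, 26 and 26 in clone 1, and 21 and 17 in clone 2. At such counts its differences were not detectable at this depth, and it overlaps UFSP2 and LRP2BP, which both hold more counts.

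**Figure D2:**
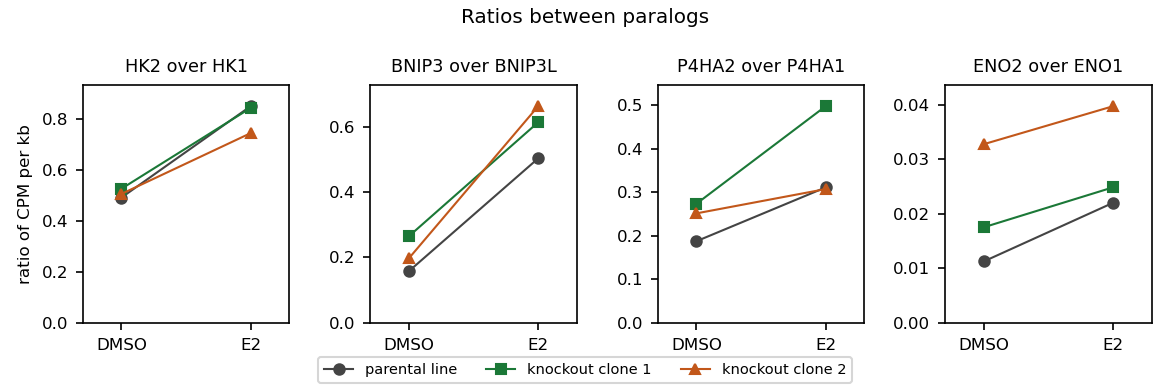
The ratio of 2 paralogs, for 4 of 10 pairs computed, chosen after their values were seen, each in CPM per kilobase of transcript (y axis, from 0), in DMSO and E2 (x axis) for the parental line and both clones, 1 library a point. The E2 point is the higher one for each of these 4 pairs in each line; HK2 over HK1 runs from 0.490 to 0.848 and BNIP3 over BNIP3L from 0.158 to 0.662. Of the pairs not shown, PFKFB4 over PFKFB3 and LDHB over LDHA were lower in E2 in each line.

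Read by direction alone, E2 exceeded DMSO in all 3 lines for 11 of the 31 genes (35.5%, against 27.8% of all genes tested): HK1, HK2, GPI, PFKM, PFKP, ENO2, PFKFB3, P4HA2, KDM3A, BNIP3 and VEGFA. These 11 were also higher in all 3 lines under median-ratio scaling, scaling to total counts and the GC and length correction. E2 was lower in all 3 lines for 6 (19.4%, against 25.1% of all genes): GAPDH, ENO1, PKM, BNIP3L, ADM and NDRG1. Of these, ENO1 did not keep its direction in each line under median-ratio scaling, and ENO1 and ADM did not under scaling to total counts or the GC and length correction. The median fitted log2 difference with E2 was -0.0024 over the 31 genes and -0.017 over all genes tested.

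In single lines, a ratio of at least 1.5-fold was used as a description, since each line has 1 library per treatment. In the parental line 7 genes were at least 1.5-fold higher in E2 (21.5% of all genes were), namely HK1, HK2, PFKM, PFKP, ENO2, PFKFB3 and VEGFA. There 3 were at least 1.5-fold lower (18.8% of all genes), namely PGK1, BNIP3L and ANKRD37. With the GC and length correction 4 parental ratios were at least 1.5-fold higher (18.0% of all genes), those of HK2, ENO2, PFKFB3 and VEGFA, and 3 lower (11.5%), those of PGK1, PKM and BNIP3L, so that HK1, PFKM, PFKP and ANKRD37 were no longer past the size. In clone 1 HK2, BNIP3, VEGFA, EGLN3 and P4HA2 were at least 1.5-fold higher (9.73% of all genes) and none lower (6.93%). In clone 2 the genes were HK2, BNIP3 and VEGFA (9.12%), and again none was lower (7.48%). HK2 and VEGFA were past 1.5-fold in all 3 lines: HK2 was 2.82-fold higher in the parental line, 1.77-fold in clone 1 and 1.52-fold in clone 2, and VEGFA 2.46-fold, 1.67-fold and 1.75-fold.

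**Figure D3:**
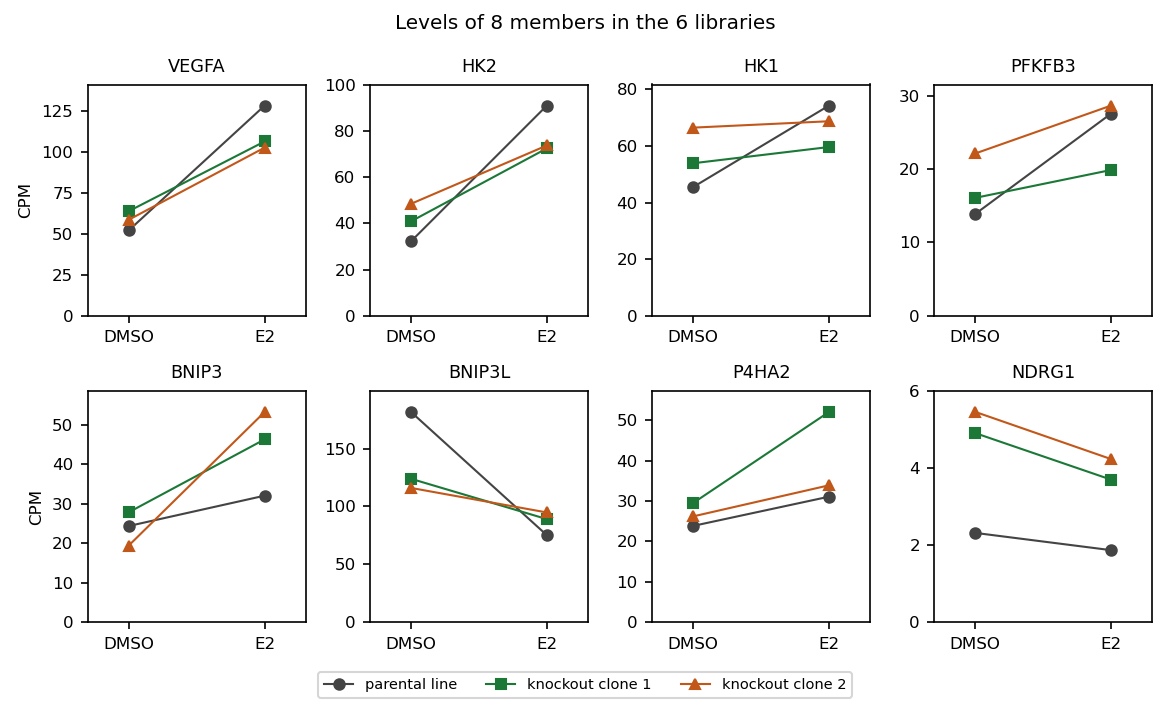
CPM (y axis, from 0) of 8 of the genes in DMSO and E2 (x axis), 1 library a point, with the libraries of a line joined. For HK2 and VEGFA the parental line is the lowest in DMSO and the highest in E2, for BNIP3L the reverse, and for NDRG1 the parental libraries (2.32 and 1.87 CPM) lie below all 4 knockout libraries.

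When the clones were tested alone, to ask what E2 does without ETV4, none of the 31 genes passed edgeR's test over 14881 genes, of which 0.329% were called, 0.316% as higher. There were 5 of the 31 at an unadjusted p under 0.05 (8.70% of all genes), and DESeq2's Wald test called BNIP3, HK2 and VEGFA, beside 2.08% of all genes. With the replicate block the test called 6: PFKP, P4HA2, HK2, VEGFA and BNIP3 rose (8.54% of all genes did) and BNIP3L fell (6.42%). In that fit BNIP3 rose by 1.08 (SE 0.13), VEGFA by 0.76 (SE 0.13), HK2 by 0.71 (SE 0.13) and P4HA2 by 0.59 (SE 0.13), and edgeR's BH-adjusted p was 2.58e-14, 2.70e-07, 2.49e-06 and 0.000122, in that order. PFKP rose by 0.36 and BNIP3L fell by 0.39, at edgeR BH-adjusted p-values of 0.0456 and 0.0305. Without the block and with 1 library left out, PFKP's difference ran from 0.023 without the clone 1 DMSO library to 0.72 without the clone 2 DMSO library, and that of P4HA2 from 0.27 without the clone 1 E2 library to 0.90 without the clone 2 E2 library. The fit with the block has 1 residual degree of freedom. It takes each gene's spread from the fit over all genes, not from that gene. Its p-values are far smaller than those without the block. In limma-voom the same block called 5, without PFKP, beside 12.6% of all genes. ENO2 and PFKFB3, at 0.33 each, were at 0.0598 and 0.0630 in the blocked edgeR test.

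The next comparison set the knockout libraries against the parental ones with treatment in the model. None of the 31 genes passed, beside 0.327% of all genes in edgeR's test and 0.269% with line as a random replicate block in limma-voom, where none passed either. Without adjustment 2 of the 31 were under 0.05 (11.4% of all genes). NDRG1 had the largest difference, at 2.32 CPM in parental DMSO against 5.19 ± 0.390 CPM in the clones (SD, n = 2) and at 1.87 CPM against 3.97 ± 0.378 CPM in E2. The fit put NDRG1 higher in the clones by 1.12 (SE 0.22) on the log2 scale. Adjusted over all genes, its p was 0.131 in edgeR's test and 0.00451 in DESeq2's Wald test, which called 2.97% of all genes with an adjusted p. NDRG1 was also called by edgeR's test when both libraries of clone 1 were left out (BH-adjusted p 0.0256, beside 4.09% of all genes) or both of clone 2 (0.0110, beside 6.41%). These fits too have 1 residual degree of freedom and borrow 1 spread for all genes. The fibroblast markers summed to 58.2 and 86.1 CPM in the parental libraries and to 46.7 to 74.5 in those of the clones. Of the 4 that could be tested none passed, at log2 differences of -2.09 for COL3A1, -1.58 for COL1A2, -1.16 for PDGFRA and -0.20 for COL1A1 (edgeR BH-adjusted p 0.117 to 0.719), and their part in the differences between clones and parental line was not tested. In single ratios, NDRG1 was the 1 gene at least 1.5-fold higher than the parental library in both clones, in DMSO (10.1% of all genes) and again in E2 (3.89%). ANKRD37 was the 1 gene at least 1.5-fold lower in both clones in DMSO (5.57%), and in E2 there was none (2.75%).

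ENO2, at a log2 difference of 0.50 (SE 0.27), and P4HA2, at 0.35 (SE 0.20), came next above 0, and LDHA, at -0.40 (SE 0.18), ENO1 and PGK1, both at -0.33, were the most negative. For these 5 genes edgeR's BH-adjusted p ran from 0.427 to 0.526. By direction alone, both clones lay above the parental library in each treatment for PFKL, ALDOC, SLC2A1, NDRG1, P4HA2 and KDM3A (6 of 31, 18.1% of all genes), and these 6 did so under the other scalings and the GC and length correction too. Both clones lay below it for 8 genes (16.0% of all genes), and all 8 are glycolytic enzymes: GPI, ALDOA, TPI1, GAPDH, PGAM1, ENO1, PKM and LDHA. Scaling to total counts, which moves the median of all genes by 0.16 in clone 1 and 0.22 in clone 2 against the parental DMSO library, left 6 of these, without GPI and PGAM1, beside 10.6% of all genes. The GC and length correction left 6 of the 8, without TPI1 and PGAM1, and added PDK1, which is not an enzyme of the 16, beside 17.3% of all genes. The median fitted log2 difference for the knockout was -0.18 over the 16 enzymes, -0.022 over the 31 genes and 0.013 over all genes. The direction was not particular to the enzymes. Of the lists given further below, 5 of 8 pentose phosphate genes also lay below (62.5%), at a median of -0.18. So did 5 of 13 glucose and lactate transport genes (38.5%) and 3 of 6 gluconeogenesis genes (50%). The HIF pathway, hypoxia-induced, isoform and pyruvate lists lay at 7.14% to 13.9%. All 4 comparisons behind these counts use the same 2 parental libraries.

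**Figure D4:**
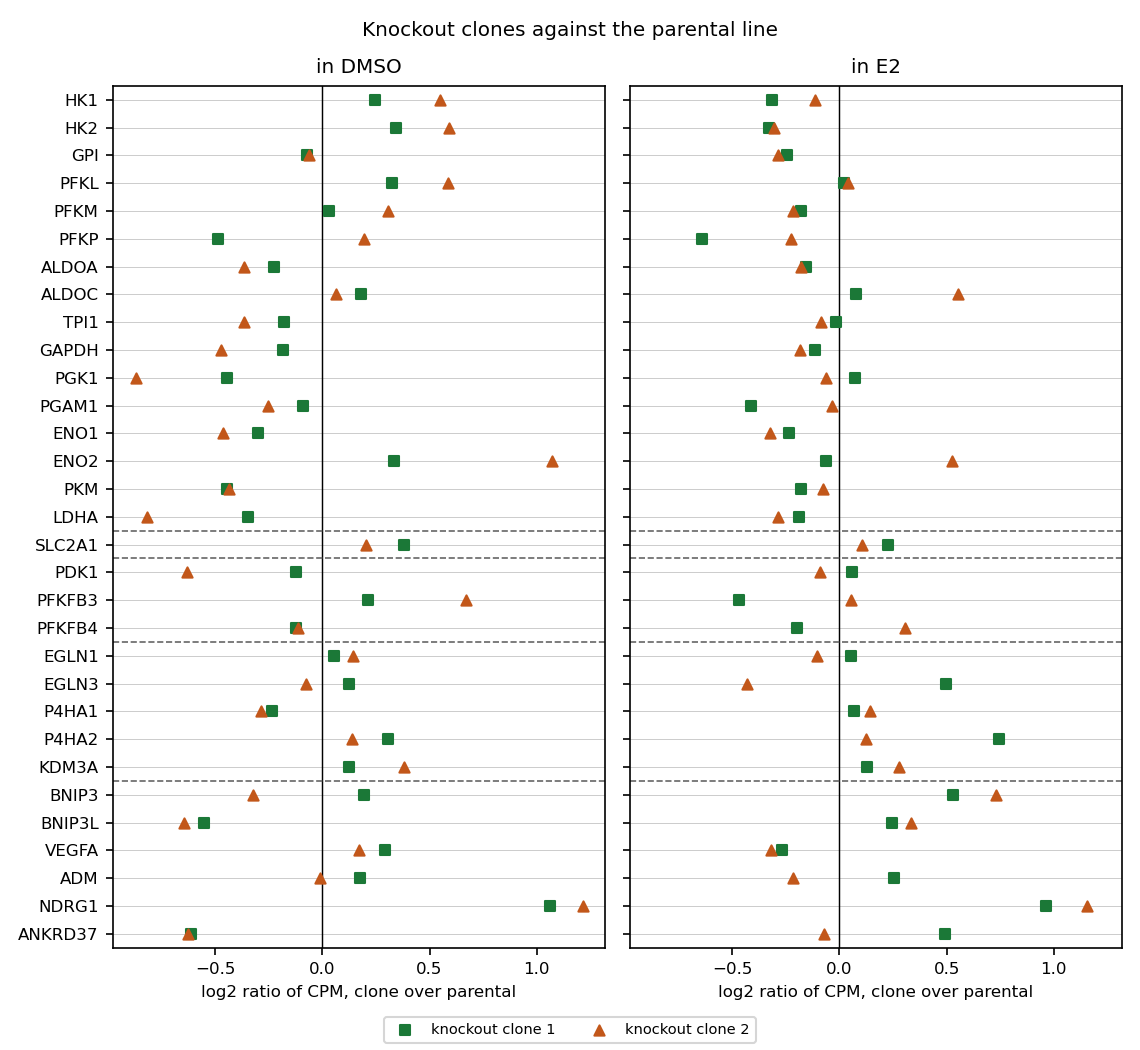
The log2 ratio of CPM between each knockout clone and the parental library (x axis) in DMSO (left) and in E2 (right) for the 31 tested genes (y axis, by role), clone 1 as squares and clone 2 as triangles. NDRG1 has the rightmost square and the rightmost triangle in each panel, at 1.06 and 1.21 in DMSO, while the squares and triangles of HK2 and VEGFA lie right of 0 in DMSO and left of 0 in E2.

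The last comparison asked whether the E2 difference itself differed between the clones and the parental line. No gene of all 15611 passed edgeR's test without the block (0%), and the lowest adjusted p among the 31 was 0.617. Unadjusted, 2 of the 31 were under 0.05 (7.62% of all genes), and DESeq2 called none of the 10 for which it gave an adjusted p (1.46% of all genes with one). With the replicate block 5 passed (16.1%, against 15.8% of all genes), a share near that of all genes. The E2 difference was larger in the clones for BNIP3 and less negative for BNIP3L, at interaction terms of 0.69 (SE 0.22) and 0.89 (SE 0.24), beside 8.90% of all genes called in this direction. It was smaller for HK2 at -0.78 (SE 0.23), PFKFB3 at -0.65 (SE 0.22) and HK1 at -0.61 (SE 0.22), beside 6.92% of all genes. The BH-adjusted p of edgeR was 0.00467 for BNIP3L, 0.00770 for HK2, 0.0161 for BNIP3, 0.0305 for PFKFB3 and 0.0441 for HK1. This blocked fit has 1 residual degree of freedom and takes each gene's spread from the fit over all genes, not from that gene. Limma-voom with the same block called BNIP3, BNIP3L and HK2 (12.2% of all genes), and the blocked fit with the GC and length correction called these and PGK1 (9.21%). With the correction the terms were 0.71 for BNIP3, 0.68 for BNIP3L and -0.50 for HK2. PFKFB3 and HK1 lost their calls there, at -0.37 (edgeR BH-adjusted p 0.210) and -0.44 (0.0668).

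In the levels, HK2 and HK1 were each lowest in the parental library in DMSO and highest in it in E2, and BNIP3L was highest in it in DMSO and lowest in E2. BNIP3 instead was lowest in the parental library among the 3 in E2. ANKRD37 had the largest unblocked term, 0.92 (SE 0.75), at its low counts. VEGFA's term was -0.53 (SE 0.23) in the blocked test (edgeR BH-adjusted p 0.105). Over the 31 genes the E2 log2 ratio was smaller in size in each clone than in parental cells for 19 (61.3%, against 64.8% of all genes) and larger in both for 4. For the 16 enzymes it was smaller in both clones for 13. The median interaction term was 0.082 over the 31 genes and -0.037 over all genes. Every such difference rests on the same 2 parental libraries, and no fit of the interaction can leave either out.

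Other genes of the pathway, from lists chosen with earlier results known, give the surroundings of these 31. HIF1A, which encodes the HIF-1α subunit, was at 202 and 173 CPM in parental DMSO and E2, 197 and 190 in clone 1, and 205 and 195 in clone 2. It passed no test, nor did its partner ARNT, the ubiquitin ligase subunit VHL or EPAS1, which encodes HIF-2α. EPAS1 was at 10.3 and 9.86 CPM in the parental line, 15.0 and 18.2 in clone 1, and 22.2 and 19.0 in clone 2, so that the parental libraries were the 2 lowest (log2 difference 0.88, SE 0.20, edgeR BH-adjusted p 0.182 for the knockout). Of the 14 tested genes of the HIF pathway list, whose median log2 difference with E2 was -0.038, CITED2 fell with E2 in the 3-line test and none rose. CITED2, which competes with HIF for its coactivator, was at 33.9 and 15.8 CPM in the parental line, 20.7 and 12.6 in clone 1, and 20.1 and 11.8 in clone 2, at a log2 difference of -0.86 (edgeR BH-adjusted p 0.0469).

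Of 36 other hypoxia-induced genes, CA12 and SLC16A3 rose with E2 and IGFBP3 fell in the 3-line test. CA12, a carbonic anhydrase at the cell surface, was at 3.02 and 27.5 CPM in parental DMSO and E2, 5.75 and 33.2 in clone 1, and 4.54 and 35.6 in clone 2. SLC16A3 (MCT4), which exports lactate, was at 48.3 and 153 CPM in the parental line, 45.3 and 130 in clone 1, and 26.9 and 121 in clone 2. For both, every E2 library lay above every DMSO library, at log2 differences of 2.88 (SE 0.18) for CA12 and 1.75 (SE 0.20) for SLC16A3. The BH-adjusted p of edgeR was 0.00257 for the first and 0.0167 for the other. IGFBP3, which binds insulin-like growth factors, was at 266 and 115 CPM in the parental line, 111 and 42.3 in clone 1, and 165 and 50.7 in clone 2, at a log2 difference of -1.45 (SE 0.19, edgeR BH-adjusted p 0.0261). With the replicate block DDIT4, a growth inhibitor induced by stress, and LOX, which cross-links collagen, fell too, by 1.05 and 0.76 on the log2 scale (edgeR BH-adjusted p 0.0255 and 0.0496). The list's median log2 difference without the block was 0.014, against -0.017 over all genes. CA9, a textbook HIF target, had 1 count in 1 library and 0 in the other 5.

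TXNIP, which limits glucose uptake, was the 1 gene of 13 on the transport list that passed, and it fell by 0.92 on the log2 scale with E2. It was at 138 and 65.3 CPM in the parental line, 146 and 87.4 in clone 1, and 170 and 88.1 in clone 2 (edgeR BH-adjusted p 0.0262). Among 13 genes for the entry of pyruvate into mitochondria and its use there, none passed without the block. PDK2, a relative of PDK1, fell with the block by 0.67 on the log2 scale (edgeR BH-adjusted p 0.0445). The lists of 14 other glycolytic isoforms and partners, 8 pentose phosphate genes and 6 gluconeogenesis genes had no call in the 3-line test, with or without the block. Over the 7 lists, 2 of 104 tested genes were called higher without the block (1.92%, against 0.903% of all genes). Called lower were 3 (2.88%, against 0.224%). With the block 2 were higher (1.92%, against 1.72%) and 6 lower (5.77%, against 0.743%). The lists were chosen with earlier results known. In the clones alone CA12 was the 1 gene of all these lists that passed without the block. With the block, SLC16A3, AK4 and MPC1 also rose there, with STC2 and KDM4B, and ARNT2, CITED2, IGFBP3, DDIT4, LOX, GALM, TXNIP, PDK4, PDK2 and PGLS fell, as did CCNG2. With CA12 these are 6 of 101 tested genes higher (5.94%, against 8.54% of all genes) and 11 lower (10.9%, against 6.42%). No gene of the 7 lists passed for the knockout.

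With the block, the interaction also called genes of these lists, 9 of 104 above 0 (8.65%, against 8.90% of all genes) and 5 below (4.81%, against 6.92%), shares near or under those of all genes. RBX1, TCEB2 and TCEB1, which encode parts of the VHL ubiquitin ligase, had terms above 0 (0.97, 0.73 and 0.70), as did the HIF targets FAM162A at 1.09, HILPDA at 0.95 and TMEM45A at 0.60, the pyruvate carriers MPC1 at 1.12 and MPC2 at 0.89, and PGAM4 at 2.32 on 11 to 60 counts. STC2 at -0.73, KDM4B at -0.71, ENO3 at -0.98, PGAM2 at -1.41 and H6PD at -0.62 had terms below 0. Over these genes edgeR's BH-adjusted p ran from 3.11e-05 for MPC1 to 0.0450 for TMEM45A. RBX1 shows the levels behind such a term: it was at 116 and 59.8 CPM in the parental line, against 70.1 and 61.8 in clone 1 and 60.4 and 70.2 in clone 2. The parental DMSO library was the 1 that stood apart.

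**Figure D5:**
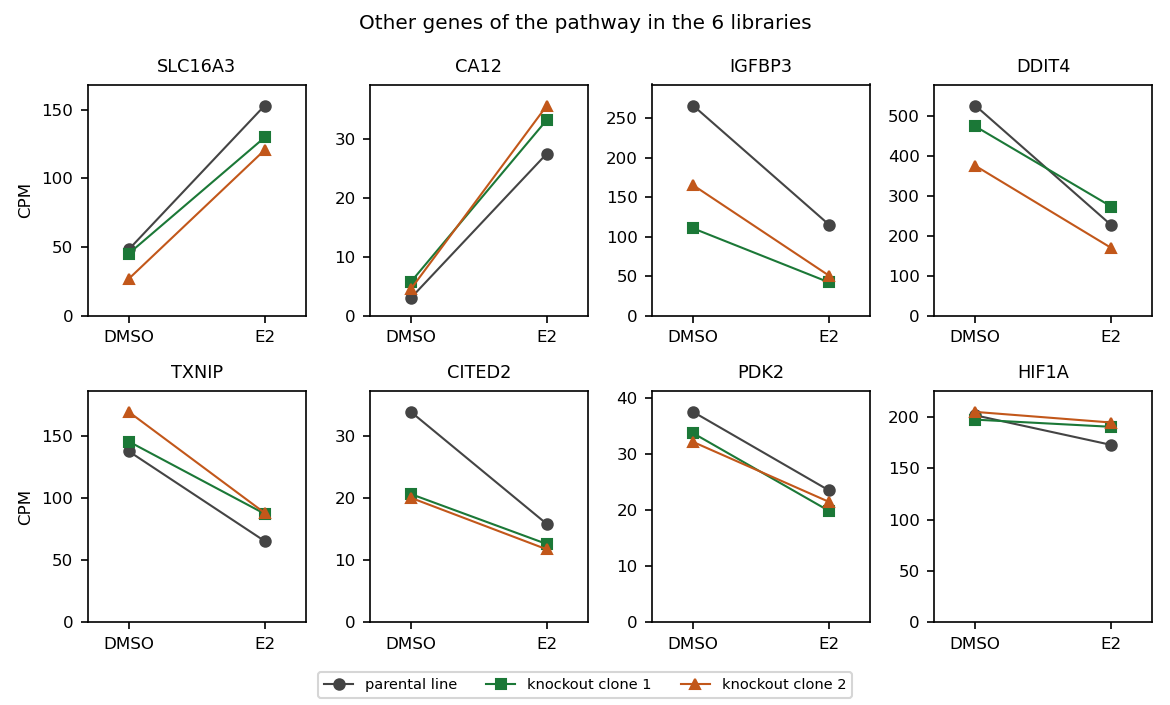
CPM (y axis, from 0) of 8 other genes of the pathway in DMSO and E2 (x axis), 1 library a point, with the libraries of a line joined. SLC16A3 and CA12 are higher in E2 in each line, IGFBP3, DDIT4, TXNIP, CITED2 and PDK2 lower, and HIF1A stays between 173 and 205 CPM.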

How the data were processed

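Poly(A) RNA of 6 libraries was sequenced from a stranded kit, per the labels' protocols. The submitters' processing notes name HISAT2, SAMtools, Subread, DESeq2 and the build hg19, without roles or versions. The authors deposited raw counts per gene symbol, and a normalized signal per gene, which was checked to equal the deposited count divided by a median-ratio size factor (0.926 to 1.19) and was not used further. Column names written DMOS and ER were read as DMSO and E2. The use of strand in counting is not given in the sources used here. The files give no coordinates, and the promoter sequences come from RefSeq on GRCh38.p14. Transcript lengths and GC content come from each gene's longest transcript in the GENCODE annotation, a protein-coding one where there was one.

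Counts were tested in R 4.3.3 with edgeR 4.0.16 (filterByExpr on the 4 groups, TMM, quasi-likelihood test, Benjamini-Hochberg adjustment over all genes, adjusted p under 0.05), which kept 15611 genes (14881 for the clones alone). Single-library ratios used a prior count of 2. Alternatives used DESeq2 1.42.0 and limma 3.58.1, other scalings, filters and prior counts, libraries left out, and a lowess correction for GC content and length. The main fit of each comparison and its fit with the block were tried on simulated counts. These counts held no differences between lines and the same spread for all genes. The other alternatives were not tried in this way. The clone numbers in the labels tie a line's DMSO and E2 libraries, and the difference between clones correlated between treatments at 0.626 across genes. The block was line as a fixed factor, and for the knockout a random effect in limma-voom.

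The members and lists were chosen with earlier results of these data known. Values in every library were given for genes with an adjusted p under 0.05 in any test, with or without the block, and for the 3 largest rises and 3 largest falls per comparison. From each pathway list up to 3 called genes per direction were named, and HIF1A, EPAS1, ARNT and VHL whatever their values. Values of further members, and the names CCNG2, STC2, KDM4B and CA9, were added after they were seen. No test of a list as a whole was made.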

Additional observations from a re-analysis of the deposited data

Results flagged for a closer look

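In the fit with the replicate block, the E2 log2 difference differed between the clones and the parental line for 5 of the 31 genes (16.1%), a share near the 15.8% of all genes called in that fit. The term, clones minus parental, was 0.89 for BNIP3L, 0.69 for BNIP3, -0.78 for HK2, -0.65 for PFKFB3 and -0.61 for HK1, and edgeR's BH-adjusted p was 0.00467, 0.0161, 0.00770, 0.0305 and 0.0441, in that order. Without the block edgeR's BH-adjusted p was 0.617 to 0.653 for these 5 genes. With the GC and length correction in the blocked fit, PFKFB3 and HK1 were no longer called, at -0.37 (edgeR BH-adjusted p 0.210) and -0.44 (0.0668). The parental side of each term is 1 library per treatment. The blocked fit without the correction has 1 residual degree of freedom and takes each gene's spread from the fit over all genes.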

How the results depend on the processing

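For the E2 effect 1 of the 31 genes was called. DESeq2 called 4 (7.58% of all genes with an adjusted p), the GC and length correction 2 (2.61% of all genes), and that correction with the replicate block 6 (10.2%). Leaving out libraries gave 0 to 9. It gave 0 without either parental library, either clone 1 library or the clone 2 E2 library. Without the clone 2 DMSO library 7 were called. The share of all genes was not worked out for that fit, so this count cannot be read as particular to the 31 genes. Without clone 1 there were 3, beside 4.83% of all genes, and without clone 2 there were 9, beside 21.6%. The fits without a clone have 1 residual degree of freedom. In the clones alone, 0 were called, against 6 with the replicate block (15.0% of all genes) and 3 in DESeq2 (2.08%). The block with the correction called 9 (18.7%). The block in limma-voom, an alternative chosen after seeing the data, called 5 (12.6%). With 1 library left out, the log2 difference of BNIP3 ran from 0.84 to 1.34. For the interaction, 0 were called, against 5 with the replicate block, 4 with the block and the correction and 3 with the block in limma-voom; leaving out knockout libraries gave 0 to 0, and no fit without a parental library was possible. For the knockout, 0 were called, against 1 in DESeq2, and the replicate block called 0. Without clone 1 the log2 difference for the knockout was 1.19 for NDRG1 and -0.031 for PFKP. Without clone 2 it was 1.03 for NDRG1 and -0.56 for PFKP. With 1 clone left against the parental line, calls for the knockout cannot measure the spread between lines and are not given. For the counts at 2-fold, no share of all genes was worked out to set beside them. At 2-fold in place of 1.5-fold, 3 genes of 10 were past the size in the parental line, 0 of 5 in clone 1, 1 of 3 in clone 2, 1 of 2 for the clones against the parental line in DMSO, 0 of 1 in E2 and 0 of 1 for clone 2 against clone 1. In DMSO the clones also had 1 in place of 2 with a prior count of 5, with total-count scaling and with the GC and length correction, which left 0 for clone 2 against clone 1. With ACGTG alone, 12 promoters matched in place of 20. No direction was reversed among the 12 gene results recomputed. Depth limits ANKRD37, ADM and SLC2A3, which have the fewest counts of the 32.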
